A study of Mus musculus with 4 samples.

Results

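RNA polymerase II and the factors that act on it while it elongates were followed in mouse embryonic stem cells after knockdown of Kdm5b. The members are 44 genes named by function: 12 polymerase subunits and 32 genes for pausing, elongation, chromatin passage and methylation of lysine 36 of histone H3. Rows of the deposited table were found through their RefSeq identifiers, with former names allowed and the row of highest mean kept, and this gave 43 of the 44 among 23697 loci. Polr2a, the largest subunit, is paired by the naming table only with a newer identifier that the deposited table does not hold. Its row may be present under an older identifier, and it is not analysed here. All 43 reached a mean of 1 FPKM (fragments mapped to a gene, divided by its transcript length in kilobases and scaled to the library) and were tested with 11784 loci in all.

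The cells were of the WW6 line, of a mixed background of mostly 129/Sv with C57/B6J and SJL, grown without feeder cells on gelatin with leukemia inhibitory factor. All 4 libraries came from transiently transfected cells: 2 control libraries (A and B) from cells given small interfering RNA against GFP, and 2 knockdown libraries (A and B) from cells given small interfering RNA against Kdm5b, a demethylase of lysine 4 of histone H3. The characteristics call the control a mock construct, and no time of harvest is given. Knockdown is partial and transient. The labels do not tell whether A and B are separate cultures, and the p-values then reflect only how far these libraries scatter, possibly for technical reasons. The libraries are bulk, so fewer cells of a type and less RNA per cell cannot be told apart.

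Kdm5b, the targeted gene, read 99.7 (A) and 145 (B) FPKM in the controls against 22.7 and 31.1 FPKM after knockdown. Steps between low values put knockdown A at 76.0% of the depth of control B and the other libraries at 98.6% to 102%. Knockdown A listed 11953 loci at 0, against 8131 to 8609 in the others. The 8 stem cell markers summed to 3493 and 4286 FPKM in the controls against 4626 and 3885 FPKM after knockdown. The 8 fibroblast markers summed to 135 and 66.8 FPKM in the controls against 44.5 and 95.3 FPKM after knockdown, nearly all of it Fn1, with Col1a1, Col1a2, Col3a1, Postn and Dcn under 1 FPKM in every library. The 8 extraembryonic endoderm markers summed to 11.0 and 16.8 FPKM in the controls and to 3.20 and 3.06 FPKM after knockdown, with Ttr at 0 in every library. These markers did not move alike. Cubn read 4.23 and 7.39 FPKM in the controls against 0.27 and 0.34 FPKM after knockdown. Gata6 read 1.81 and 2.09 FPKM in the controls against 2.32 and 0.079 FPKM after knockdown. The part of depth or of these markers in the values below was not tested.

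RNA polymerase II makes messenger RNA. Soon after it starts, it halts under the factors DSIF and NELF until the kinase P-TEFb, which a 7SK RNA complex holds in reserve, phosphorylates them and lets it go. The PAF1 complex, histone chaperones and TFIIS then travel with it or help it through nucleosomes, and SETD2, carried by the polymerase, lays methyl groups on lysine 36 of histone H3 along the gene body. In embryonic stem cells this release from pausing is a known point of control at many genes.

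The promoters of 4 members are shown because KDM5B acts on a histone mark of promoters and because, among members with 1 listed promoter, these genes had the largest differences on each side with groups that did not overlap: Ell and Ccnt1 lower in knockdown, Nelfa and Larp7 higher. No measurement of the promoters themselves was made. Each line holds the 250 bases before the transcription start, 5′ to 3′ on the gene's strand, from RefSeq on GRCm38.p6. Capitals mark GC boxes (GGGCGG, or CCGCCC on the other strand) and 1 CCAAT box in Larp7. The intervals are chr8:70539425-70539674 (plus strand) for Ell, chr15:98567737-98567986 (minus) for Ccnt1, chr5:33936272-33936521 (minus) for Nelfa and chr3:127553350-127553599 (minus) for Larp7.
Ell: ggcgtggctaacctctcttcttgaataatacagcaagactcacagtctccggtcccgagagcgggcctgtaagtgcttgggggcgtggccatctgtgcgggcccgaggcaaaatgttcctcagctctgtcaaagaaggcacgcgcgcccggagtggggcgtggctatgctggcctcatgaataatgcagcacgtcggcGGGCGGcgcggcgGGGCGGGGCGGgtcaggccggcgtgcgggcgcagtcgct
Ccnt1: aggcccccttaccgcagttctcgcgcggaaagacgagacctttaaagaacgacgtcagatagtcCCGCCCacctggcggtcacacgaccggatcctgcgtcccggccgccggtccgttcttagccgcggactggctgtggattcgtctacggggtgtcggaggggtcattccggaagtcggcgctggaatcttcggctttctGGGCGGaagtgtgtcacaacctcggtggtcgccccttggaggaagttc
Nelfa: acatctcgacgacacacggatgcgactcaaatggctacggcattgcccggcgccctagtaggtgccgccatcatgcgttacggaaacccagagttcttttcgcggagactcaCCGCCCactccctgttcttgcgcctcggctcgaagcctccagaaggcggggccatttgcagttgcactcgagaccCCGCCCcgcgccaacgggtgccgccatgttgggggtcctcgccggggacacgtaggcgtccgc
Larp7: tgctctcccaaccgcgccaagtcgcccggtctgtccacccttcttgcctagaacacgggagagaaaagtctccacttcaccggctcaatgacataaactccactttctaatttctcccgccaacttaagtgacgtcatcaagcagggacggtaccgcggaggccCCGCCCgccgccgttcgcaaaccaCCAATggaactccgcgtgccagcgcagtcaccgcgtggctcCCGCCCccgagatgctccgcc

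Genes on both sides of the comparison thus had CpG-rich promoters with GC boxes. In the full 300-base windows (250 bases before the start and 50 after) GC content was 66.3% for Ell, 63.7% for Ccnt1, 65.3% for Nelfa and 61.7% for Larp7. Promoters were listed for 32 of the 43 members, in 34 windows, with a median GC content of 63.7% and a median of 29.5 CpG dinucleotides. Over all 32851 listed windows the medians were 52.7% and 7. A GC box stood in 29 of the 34 windows (85.3%), against 35.7% of all windows. A TATA box (TATAAA) stood in 2 (5.88%, against 13.6%), a CCAAT box (CCAAT) in 11 (32.4%, against 37.4%), an E-box (CACGTG) in 3 (8.82%, against 7.15%) and the NRF1 core, a palindrome given here by name, in 1 (2.94%, against 0.971%). Both strands were searched, and none of these motifs contains another. All windows include those of genes that are silent in these cells, so the contrast describes the members and tests nothing.

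The comparison of knockdown with control asked whether loss of Kdm5b altered the RNA of the transcription machinery. No member passed the test: 0 of 43 were called in either direction by limma over all loci at an adjusted p under 0.05, against 4 of 11784 loci (0.0339%), all lower. The targeted gene Kdm5b was not called either (limma adjusted p = 0.562), so a gene not called may still have changed. At an unadjusted limma p under 0.05 the counts were 0 of 43 members and 290 loci (2.46%). Log2 fold changes, on the log2(FPKM + 1) scale, ran from -0.59 for Ell to 0.76 for Polr2k. The median was 0.08 over the members and -0.03 over all loci, with 26 members above 0 and 17 below, where 47.1% of loci lay above 0. No member reached an absolute log2 fold change of 1, against 985 loci (8.36%), and 5 reached 0.5, against 28.2% of loci. Among the 7983 loci within the members' range of mean FPKM, 357 reached 1. Of these 7983 loci 49.7% lay above 0, with a median of -0.0029. Their median level was 19.4 FPKM, still below the 42.6 FPKM of the members. Every 95% interval held 0, and for 26 of 43 members (60.5%) both ends of the interval lay within 1 log2 unit of 0, as they did at 32.8% of loci.

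**Figure D1:**
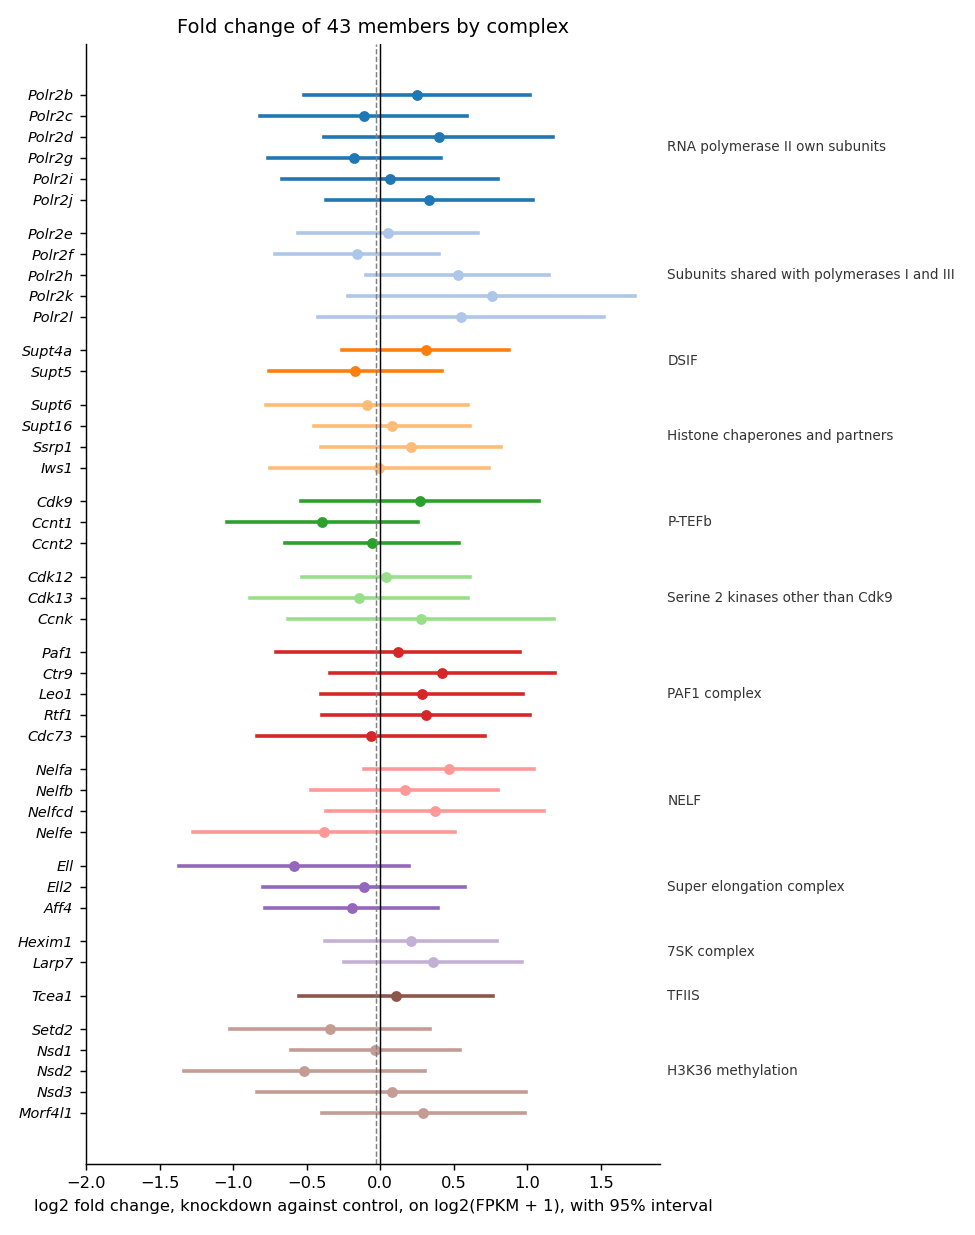
Log2 fold change of knockdown against control (x axis, log2(FPKM + 1) scale) for 43 members, grouped by complex (y axis); points are estimates, bars are 95% intervals and the dashed line is the median of all loci tested. Every bar crosses 0, and the points run from -0.59 (Ell) to 0.76 (Polr2k).

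The members are well expressed. Their mean over the 4 libraries ran from 5.59 FPKM for Ccnk to 218 FPKM for Polr2f, with a median of 42.6 FPKM against 12.3 FPKM over all loci, and 36 of 43 lay above that of all loci. By the estimated worth of 1 fragment, the values rest on 37.0 fragments (Polr2l in its lowest library) to 3427 fragments (Nsd1 in its highest). The median standard error was 0.28 for the members and 0.37 for all loci.

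The polymerase itself was measured through 11 of its 12 subunits, and none was called. Polr2b, the second largest subunit and the partner of Polr2a in the active site (chromosome 5 of mm9, 77739509 to 77837070), read 68.6 FPKM in control A, 122 FPKM in control B and 108 and 110 FPKM after knockdown. Both knockdown values fall between the controls, and only control A is low. The group means were 95.5 ± 38.0 FPKM and 109 ± 1.15 FPKM (SD, n = 2 each), a difference of 0.25 ± 0.31 on the log2 scale (standard error; limma adjusted p = 0.921). Without control A it was -0.16 and without control B 0.66, so its sign rests on which control is used.

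Among the other subunits that only polymerase II carries, Polr2c, which joins Polr2j in the assembly core, read 25.9 and 37.0 FPKM in the controls against 26.1 and 31.2 FPKM after knockdown. Polr2j read 129 and 202 FPKM in the controls against 180 and 229 FPKM after knockdown. Polr2d, which forms a stalk with Polr2g, read 42.3 and 70.0 FPKM in the controls against 82.8 and 62.5 FPKM after knockdown. For all of these the groups overlap.
Polr2g read 87.1 and 107 FPKM in the controls against 76.1 and 95.1 FPKM after knockdown. Polr2i, a zinc-binding subunit that takes part in proofreading, read 49.0 and 55.4 FPKM in the controls against 42.6 and 69.7 FPKM after knockdown, with the knockdown libraries lying on either side of both controls. Over the 6 measured subunits of this kind the median log2 fold change was 0.16 and 4 were above 0. Groups that did not overlap were found for 0 of the 6, against 31.9% of all loci. That median was -0.09 without control A and 0.40 without control B.

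The 5 subunits shared with polymerases I and III held the highest and the lowest levels of the enzyme. Polr2f was highest, at 210 and 250 FPKM in the controls against 184 and 229 FPKM after knockdown. Polr2l was lowest, at 5.84 and 8.66 FPKM in the controls against 14.2 and 8.31 FPKM after knockdown, so FPKM of subunits that share 1 enzyme spanned 23.6-fold. Among the 5 shared subunits Polr2l has the longest transcript, at 1650 bases, and 382 of its bases match Usp50 at 99.7% identity. Polr2e read 110 and 146 FPKM in the controls against 147 and 117 FPKM after knockdown, groups that overlap.
Of the 11 polymerase subunits 1 had groups that did not overlap (9.09%), against 31.9% of all loci. This was Polr2h, a shared subunit (chromosome 16 of mm9, 20717899 to 20722338). It read 54.8 and 67.9 FPKM in the controls against 101 and 77.0 FPKM after knockdown. Its log2 fold change was 0.52 (standard error 0.26, 95% interval -0.10 to 1.15, limma adjusted p = 0.918), and its unadjusted limma p of 0.0850 was the smallest of all members. It ranged from 0.33 (without knockdown A) to 0.72 when 1 library was left out. Polr2h matches Gm7511 over 445 bases at 98.0% identity, so its fragments may be split. Polr2k, a small zinc-binding shared subunit, read 28.8 and 41.3 FPKM in the controls against 84.9 and 40.9 FPKM after knockdown. Only knockdown A is high. Its log2 fold change was 0.76 (± 0.40 standard error; limma adjusted p = 0.918), 1.28 without knockdown B (limma adjusted p = 0.131) and 0.24 without knockdown A. Of its 601 transcript bases, 303 match Gm46136 at 96.0% identity.

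**Figure D2:**
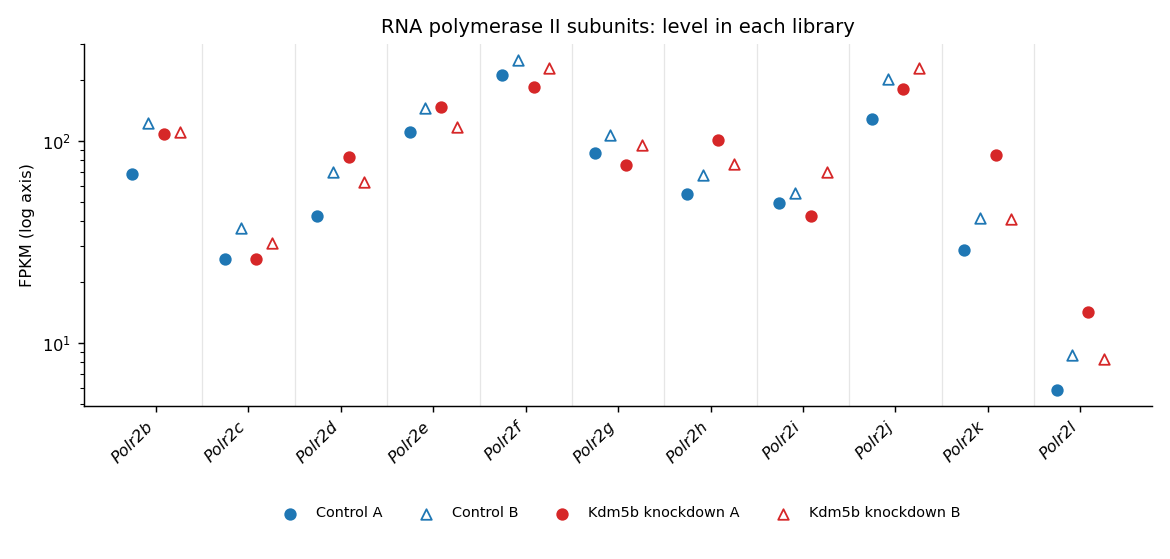
FPKM on a log axis (y) of 11 polymerase II subunits (x) in each library; circles are replicate A and triangles replicate B, blue control and red knockdown. The blue circle (control A) lies under the blue triangle (control B) in all 11 subunits, and Polr2k and Polr2l stand highest in knockdown A.

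The controls differed from each other across the enzyme. Control A lay below control B in 11 of 11 polymerase subunits, with a median difference of -0.50 on the log2(FPKM + 1) scale, while control A lay below control B at 48.3% of loci, with a median of 0.02. Control A was the lowest of the 4 libraries for 8 of the 11 subunits, against 26.7% of all loci. Over all loci knockdown A was most often the lowest, at 38.6%. The gap between the controls was larger than the difference between groups in 8 of 11 subunits (72.7%), against 52.9% of loci. The summed FPKM of the 11 subunits was 812 in control A, 1106 in control B, 1048 in knockdown A and 1070 in knockdown B. The median log2 fold change of the subunits, 0.25 over all libraries, was -0.02 without control A and 0.66 without control B. This pattern was noticed in the values and not set out beforehand.
Among the other members, control A lay below control B in 17 of 32 (53.1%), with a median difference of -0.01. The direction differed between complexes: control A was the lower in 4 of 4 NELF subunits and 4 of 5 PAF1 complex subunits, and the higher in 3 of 3 P-TEFb genes and 5 of 5 genes for methylation of lysine 36. Of 19 subunits and partners particular to polymerases I and III, 16 were lower in control A (84.2%, median -0.37). Across the 43 members the difference between the controls went with transcript length (Spearman's rho 0.50) and against mean FPKM (-0.41). Over 11657 tested loci of known length the same values were 0.12 and -0.21. Genes here share the same libraries, so these are descriptions.

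**Figure D3:**
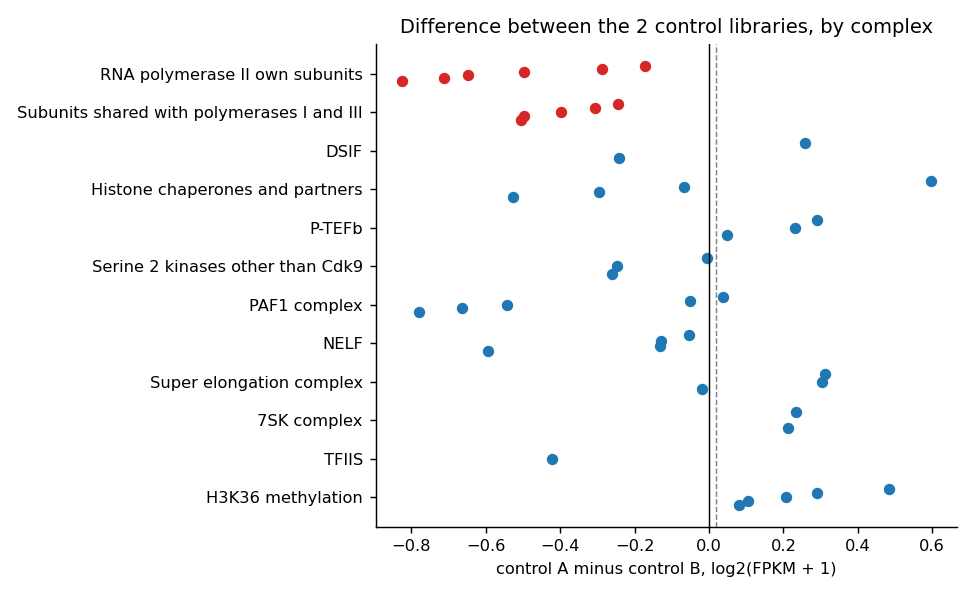
Control A minus control B on the log2(FPKM + 1) scale (x axis) for each member, by complex (y axis); red points are polymerase subunits, blue points other members and the dashed line the median of all loci tested, 0.02. All 11 red points lie left of 0, and all genes for methylation of lysine 36 lie right of it.

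Of the factors that hold and release the paused polymerase, none was called. Supt4a, the small subunit of DSIF, read 69.8 and 82.8 FPKM in the controls against 86.0 and 104 FPKM after knockdown, with both knockdown libraries above both controls (log2 fold change 0.31 with a standard error of 0.23; limma adjusted p = 0.918). Supt4a shares 351 bases at 99.1% identity with the copy Supt4b, so its fragments may be split between them. Its log2 fold change was 0.17 without knockdown B and 0.19 without control A. Supt5, the large subunit of DSIF, read 66.1 and 55.0 FPKM in the controls against 58.2 and 49.2 FPKM after knockdown (log2 fold change -0.17).

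NELF keeps the polymerase paused together with DSIF. Nelfa (chromosome 5 of mm9, 34240829 to 34278907) read 29.3 and 32.1 FPKM in the controls against 43.5 and 42.1 FPKM after knockdown. The groups do not overlap and each is tight: 30.7 ± 1.99 and 42.8 ± 0.98 FPKM (SD, n = 2 each). The log2 fold change was 0.47 (standard error 0.24, 95% interval -0.11 to 1.04, limma adjusted p = 0.918), and it stayed between 0.40 and 0.53 when any 1 library was left out.
The other NELF subunits did not share this. Nelfb read 23.5 and 25.8 FPKM in the controls against 30.6 and 25.2 FPKM after knockdown. Nelfcd read 36.3 and 37.8 FPKM in the controls against 61.8 and 37.7 FPKM after knockdown, high in knockdown A only, and it shares its interval with Ctsz, which measured 74.4 and 49.9 FPKM in the controls against 49.7 and 48.9 FPKM after knockdown. Nelfe, the RNA-binding subunit, read 24.9 and 38.1 FPKM in the controls against 17.9 and 30.4 FPKM after knockdown, low in knockdown A.

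P-TEFb is the kinase Cdk9 with cyclin T. Cdk9 read 7.02 and 6.75 FPKM in the controls against 9.38 and 7.74 FPKM after knockdown, and both knockdown libraries lie above both controls (log2 fold change 0.27, standard error 0.33, and 0.15 without knockdown A). Ccnt1, its main cyclin partner, read 32.6 and 27.7 FPKM in the controls against 20.5 and 25.0 FPKM after knockdown, with both knockdown libraries below both controls (log2 fold change -0.39 with a standard error of 0.27; limma adjusted p = 0.918). Ccnt1 was at -0.26 without knockdown A, and it shares its interval with 9330020H09Rik, which measured 2.45 and 1.72 FPKM in the controls against 8.43 and 2.18 FPKM after knockdown. Ccnt2 read 48.3 and 39.3 FPKM in the controls against 42.4 and 41.4 FPKM after knockdown, within the control range.

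The 7SK complex stores P-TEFb in an inactive form. Hexim1, its kinase inhibitor, read 38.0 and 32.6 FPKM in the controls against 40.3 and 41.4 FPKM after knockdown. Larp7, which binds and stabilizes 7SK RNA, read 40.3 and 34.1 FPKM in the controls against 43.6 and 52.3 FPKM after knockdown. For both genes the knockdown libraries lie above the controls, with log2 fold changes of 0.21 (standard error 0.24) and 0.36 (standard error 0.25), and neither was called (limma adjusted p = 0.918). Hexim1 was at 0.10 without control B and Larp7 at 0.23 without knockdown B. Larp7 shares its interval with 5 microRNA loci of the Mir302 and Mir367 cluster, all listed at 0 in every library, and 764 bases of its transcript match the copy Gm12666 at 98.4% identity.

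The super elongation complex speeds the released polymerase. Ell, an elongation factor of this complex (chromosome 8 of mm9, 73063574 to 73116757), read 12.6 and 10.0 FPKM in the controls against 7.23 and 7.09 FPKM after knockdown. The knockdown libraries are alike and lie below both controls, with a knockdown mean at 63.2% of the control mean. This was the lowest log2 fold change of the members, -0.59 (standard error 0.32, 95% interval -1.37 to 0.20, limma adjusted p = 0.918), between -0.74 and -0.44 when any 1 library was left out. Its values rest on an estimated 67.9 to 158 fragments.
Its paralog Ell2 read 19.9 and 20.2 FPKM in the controls against 21.2 and 16.1 FPKM after knockdown, on either side of the controls. Aff4, the scaffold of the complex, read 78.8 and 63.3 FPKM in the controls against 57.0 and 66.6 FPKM after knockdown, and these groups overlap.

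**Figure D4:**
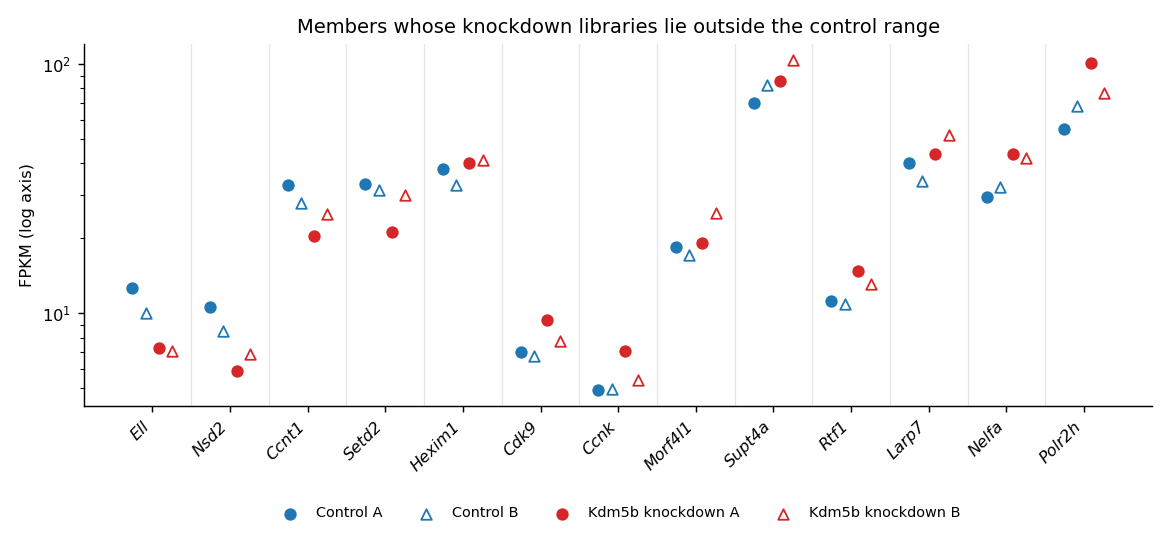
FPKM on a log axis (y) of the 13 members whose knockdown libraries both lie outside the range of the controls (x, ordered by log2 fold change from Ell at -0.59 to Polr2h at 0.52); circles are replicate A and triangles replicate B, blue control and red knockdown. Red lies under blue for the first 4 genes and over blue for the other 9.

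Cdk12 and Cdk13, which with cyclin K (Ccnk) phosphorylate the tail of the polymerase during elongation, were not called either. Cdk12 read 44.1 and 52.6 FPKM in the controls against 48.9 and 50.0 FPKM after knockdown (log2 fold change 0.04, 95% interval -0.53 to 0.61). Cdk13 read 19.4 and 23.5 FPKM in the controls against 16.0 and 23.1 FPKM after knockdown. Ccnk, the lowest member, read 4.93 and 4.95 FPKM in the controls against 7.08 and 5.41 FPKM after knockdown, above both controls (log2 fold change 0.28, standard error 0.37, and 0.11 without knockdown A).

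The PAF1 complex rides with the polymerase and links it to histone modification. Rtf1, a subunit tied to ubiquitination of histone H2B, read 11.2 and 10.9 FPKM in the controls against 14.8 and 13.1 FPKM after knockdown, with no overlap (log2 fold change 0.31 with a standard error of 0.29; limma adjusted p = 0.918). Ctr9, the scaffold of the complex, read 23.2 and 37.4 FPKM in the controls against 35.97 and 44.03 FPKM after knockdown. Here control A is low and control B overlaps the knockdown libraries; the log2 fold change of 0.42 was 0.09 without control A.
Paf1 read 33.9 and 58.9 FPKM in the controls against 56.7 and 41.9 FPKM after knockdown, and Leo1 read 42.7 and 62.7 FPKM in the controls against 70.1 and 57.0 FPKM after knockdown. Both overlap. Cdc73, also called parafibromin, read 11.6 and 12.1 FPKM in the controls against 9.51 and 13.3 FPKM after knockdown, on either side of the controls. Of the 5 subunits 4 were above 0, with a median log2 fold change of 0.28, which was 0.013 without control A and 0.51 without control B.

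The histone chaperones and their partners overlapped between groups in 4 of 4 genes. Over all loci the groups did not overlap at 31.9%. The FACT subunits, which take apart and rebuild nucleosomes ahead of and behind the polymerase, were among the most abundant members: Supt16 read 133 and 164 FPKM in the controls against 154 and 159 FPKM after knockdown. Ssrp1 read 135 and 195 FPKM in the controls against 195 and 181 FPKM after knockdown. Supt6, a chaperone that binds the polymerase, read 63.6 and 41.7 FPKM in the controls against 46.7 and 49.8 FPKM after knockdown, and its partner Iws1 read 16.6 and 17.5 FPKM in the controls against 14.0 and 20.5 FPKM after knockdown. Tcea1, the TFIIS gene that rescues backtracked polymerase, read 26.8 and 36.2 FPKM in the controls against 35.4 and 31.9 FPKM after knockdown, within the control range.

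Of the genes for methylation of lysine 36, Setd2 makes the trimethyl mark and Nsd1, Nsd2 and Nsd3 the dimethyl mark. Setd2 read 33.2 and 31.3 FPKM in the controls against 21.3 and 29.9 FPKM after knockdown, below both controls in both libraries (log2 fold change -0.34, standard error 0.28, and -0.10 without knockdown A). Nsd2 (chromosome 5 of mm9, 34185761 to 34240615) read 10.6 and 8.50 FPKM in the controls against 5.89 and 6.84 FPKM after knockdown, with no overlap (log2 fold change -0.52, standard error 0.34, 95% interval -1.34 to 0.31, limma adjusted p = 0.918). Nsd1 read 62.3 and 53.8 FPKM in the controls against 52.3 and 61.1 FPKM after knockdown, and Nsd3 read 8.36 and 5.69 FPKM in the controls against 8.57 and 6.28 FPKM after knockdown; these groups overlap.
Morf4l1, a reader of the mark, read 18.5 and 17.1 FPKM in the controls against 19.2 and 25.3 FPKM after knockdown, above both controls (log2 fold change 0.29, standard error 0.28, and 0.099 without knockdown B). It has 5 copies that match over 811 to 821 bases at 97.1% identity or more, so its level is uncertain. Nsd2 and Nelfa are neighbours that point toward each other, with 213 bases between their intervals, and their log2 fold changes have opposite signs (-0.52 and 0.47). Whether counting used strand is not given in the sources used here, and a part of this closeness in the values was not tested.

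In all, 9 members had both knockdown libraries above both controls and 4 had both below (30.2% of 43). Over all loci the groups did not overlap at 31.9%, with 15.0% higher and 16.9% lower, so the members' share is close to the background. The 9 were Polr2h, Supt4a, Cdk9, Hexim1, Larp7, Ccnk, Rtf1, Nelfa and Morf4l1, and the 4 were Ell, Nsd2, Ccnt1 and Setd2. Leaving out 1 library could turn none of these 13 signs, because groups that do not overlap keep their order. It moved the log2 fold change of 9 by over 1.5 times, the exceptions being Rtf1, Nelfa, Ell and Nsd2. Knockdown A and knockdown B against the same control mean gave member medians of 0.16 and 0.10, and medians over all loci of -0.04 and 0.01. Across members the log2 fold change went against transcript length (Spearman's rho -0.40, n = 43). Over loci of known length rho was -0.06. Control A enters the log2 fold change, and control A minus control B itself had a rho of 0.50 with length over these members. The part of control A in the value of -0.40 was not tested.

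**Figure D5:**
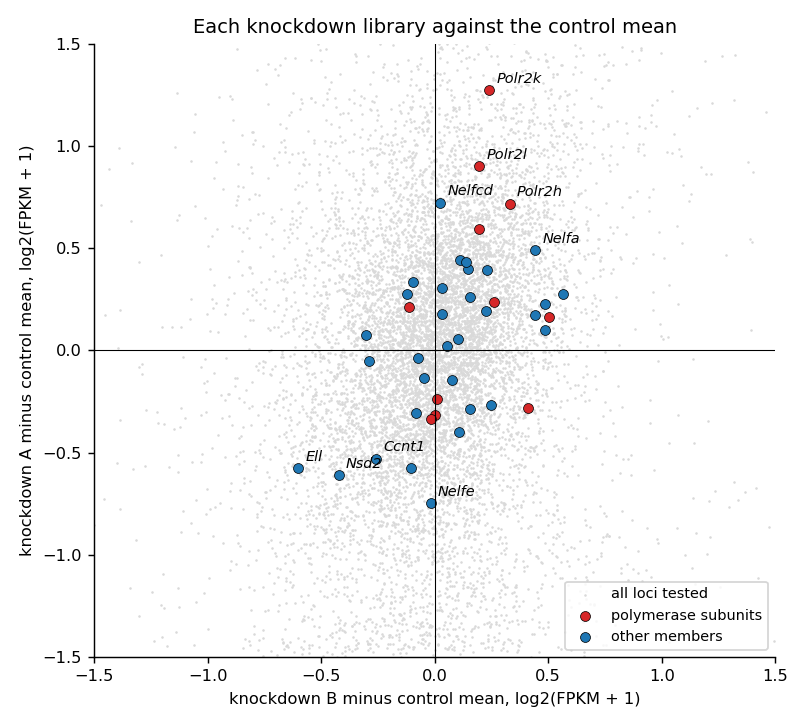
Each knockdown library minus the control mean on the log2(FPKM + 1) scale (x knockdown B, y knockdown A); red points are polymerase subunits, blue points other members and grey points all loci tested, of which 1373 lie beyond the axes. Both axes share the control mean; Ell and Nsd2 lie low in both libraries, while Polr2k and Nelfcd lie high mainly in knockdown A.

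The wider pathway was read from 6 further lists of 114 genes, of which 113 were found and 111 tested. None of the 111 was called by limma, 1 had an unadjusted p under 0.05 (Tcea2), and the median log2 fold change was 0.04 with 61 above 0. Among 27 general transcription factors, which place the polymerase at promoters, the median was 0.05. Ercc2, a helicase of TFIIH, was listed at 203 FPKM in control A against 12.0 FPKM in control B and 11.2 and 11.7 FPKM in knockdown. Gtf2a1, a subunit of TFIIA, read 14.5 and 12.8 FPKM in the controls against 4.45 and 10.9 FPKM after knockdown.
The 17 tested other elongation factors had a median of -0.04. Tcea2, a paralog of Tcea1, read 7.05 and 5.53 FPKM in the controls against 0 and 2.69 FPKM after knockdown (log2 fold change -1.92 with a standard error of 0.71; limma adjusted p = 0.918). Aff1, a paralog of Aff4, read 13.0 and 6.75 FPKM in the controls against 3.09 and 5.01 FPKM after knockdown (log2 fold change -1.07, standard error 0.45). Both genes were below both controls, and neither was called.
The 17 genes for kinases and phosphatases of the polymerase tail and for polymerase assembly had a median of 0.18. Each extreme lay in 1 library: Ccnh, the cyclin of Cdk7, read 19.4 and 17.5 FPKM in the controls against 0.85 and 20.7 FPKM after knockdown. The phosphatase Ctdsp2 read 26.6 and 15.8 FPKM in the controls against 18.8 and 209 FPKM after knockdown.
The 14 Integrator genes, whose complex cuts nascent RNA near promoters, had a median of 0.02 and no log2 fold change larger in size than that of Ints13 (0.31), which read 23.3 and 33.4 FPKM in the controls against 49.3 and 24.6 FPKM after knockdown. Ints9 (-0.30) read 14.0 and 12.1 FPKM in the controls against 9.03 and 11.8 FPKM after knockdown. The 17 genes listed as demethylases and readers of lysine 36, which also hold the methyltransferase Ash1l, had a median of -0.0020. Dnmt3b, a DNA methyltransferase that reads the mark, read 31.4 and 73.5 FPKM in the controls against 78.3 and 77.8 FPKM after knockdown (log2 fold change 0.69, standard error 0.41), where only control A is low. Phf1 measured 3.55 and 1.25 FPKM in the controls against 0 and 1.58 FPKM after knockdown. The 19 genes of polymerases I and III had a median of 0.19, and of -0.03 without control A. Polr3gl read 9.04 and 17.9 FPKM in the controls against 8.30 and 4.70 FPKM after knockdown (log2 fold change -0.92, standard error 0.45). Crcp read 19.4 and 19.5 FPKM in the controls against 9.05 and 15.6 FPKM after knockdown (-0.67, standard error 0.34). Both were below both controls, and neither was called.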

How the data were processed

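RNA was measured in 4 libraries. Total RNA without its ribosomal part was reverse transcribed from oligo-dT plus random hexamer primers, sheared to 300 bp and made into directional libraries, per the labels' protocols. The authors deposited FPKM per locus and library, made with Cufflinks and Cuffdiff on mm9 per the submitters' processing notes. Neither versions, nor aligner, nor strand setting is given in the sources used here. FPKM is not a count, so no count model was used. A listed 0 may be an estimate that failed.

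Loci were named through RefSeq identifiers with a GRCm38.p6 table, used for names only: 23241 of 23697 loci had 1 symbol, 189 several and 267 none. Polr1f, Polr1g and Polr1h were found under former names. Coordinates are the deposited mm9 intervals, with 1 added to the start because they count from 0 (at 8504 named loci end minus start equalled the reference gene length, against 540 for 1 more). An interval can cover neighbouring genes, and 10 members share theirs. Transcript lengths came from GENCODE.

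Tests covered loci whose mean reached 1 FPKM, on log2(FPKM + 1), which understates changes of low genes, with limma 3.58.1 in R 4.3.3 (group alone, eBayes with trend, Benjamini-Hochberg over 11784 loci, two-sided, threshold 0.05). Tested on simulated data, the fit called nearly none of the genes changed by 1 log2 unit and most of those changed by 2 or 3. These shares hold for the simulated scatter only. In the libraries measured here, Kdm5b stood at -2.14 on this scale and still missed the threshold (limma adjusted p = 0.562). Changes of 2 log2 units can therefore be missed too. Alternatives were a pseudocount of 0.1, no filter, a filter at 5 FPKM, quantile normalization, upper-quartile scaling, no trend in eBayes, the replicate letter as a block and each library left out. Depth was estimated from steps between low values of transcripts of known length: 80.6% to 82.2% of them lay within 0.15 of a whole fragment, with 200 bases taken off each length. In controls A and B and knockdown A and B, 1 FPKM in a transcript of 2000 bases stands for 7.87, 7.74, 5.89 and 7.63 fragments. Copies of members were searched with BLAST 2.17.0 (at least 95% identity over 300 bases), and 11 of 43 members had a match in another gene. Python 3.11.15, numpy 2.4.6, pandas 2.3.3, scipy 1.17.1 and matplotlib 3.10.9 were used.

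The members and lists were chosen with earlier results of these data known, so lists are described by counts and medians with no list test. Named with values in every library are all members and, of each further list, the 2 genes with the largest absolute log2 fold change.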

Additional observations from a re-analysis of the deposited data

How the results depend on the processing

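No member was called under any of the 11 alternatives run, in either direction. The count of lower loci called over the whole table, 4, was 1 with no filter, 7 with the replicate block and 2 when eBayes had no trend; leaving out 1 library gave 0 to 119 lower and 0 to 15 higher loci, the highest counts without knockdown B. The members' median log2 fold change, 0.08, ranged from -0.022 (without control A) to 0.23 (without control B) when 1 library was left out, and from 0.06 to 0.09 under the other alternatives. The median of all loci moved from -0.03 to 0.03 with quantile normalization, under which Cdc73 turned to 0.0016 and Iws1 to 0.022. The letters A and B are not said to pair libraries, and deviations of control A and knockdown A correlated at -0.07 across loci. No member was called in the paired fit with the replicate block. Both letters occur in each group, so this block cannot change a log2 fold change. That the members' log2 fold changes stayed the same under it therefore tests nothing.

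The sign of 17 members turned when 1 library was left out, and 26 kept theirs. The 26 include the 13 members whose groups do not overlap, and for those the sign could not turn. The log2 fold change of 39 of 43 members moved by over 1.5 times in at least 1 of these fits. The ranges were -0.16 to 0.66 for Polr2b, -0.36 to 0.14 for Polr2c, -0.15 to 0.25 for Polr2e, -0.28 to 0.41 for Polr2i, -0.39 to 0.21 for Supt6, -0.067 to 0.23 for Supt16, -0.054 to 0.47 for Ssrp1, -0.20 to 0.090 for Ccnt2 and -0.086 to 0.16 for Cdk12. They were -0.40 to 0.11 for Cdk13, -0.27 to 0.51 for Paf1, -0.29 to 0.16 for Cdc73, -0.30 to 0.076 for Ell2, -0.10 to 0.32 for Tcea1, -0.27 to 0.25 for Iws1, -0.14 to 0.077 for Nsd1 and -0.17 to 0.32 for Nsd3. Of these signs 11 turned without control A. With 2 libraries a group and a median 95% interval of 0.69 on each side for members, changes smaller than this could not be told from the spread between libraries, and after adjustment over all loci larger ones can be missed too.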
